A study of Rattus norvegicus with 2 samples.

Results

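The interferon-stimulated genes described here were 9 genes of the innate immune response, Irf1, Irf7, Isg15, Rsad2, Ifit2, Ifit3, Mx1, Mx2 and Ifi27l2b, which were taken by their symbols from the 32623 genes listed for the rat carotid artery. All 9 symbols were listed once and had UMIs (unique molecular identifiers, each counting 1 captured RNA molecule), and 19393 of the listed genes had any. The 9 genes were chosen by their UMI levels across cell classes and by their differences between the libraries, as seen in earlier results of these same data, so both are given as a description. With 1 library per group there was no replicate, and no test between the groups could be made.

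Single-cell RNA-seq had been run on the 10x Genomics platform with carotid arteries of male SD rats, given as 12 weeks old in the sample labels. The control group was the left carotid artery, with no treatment. The case group was the right carotid artery 28 days after balloon injury, in which an inflated balloon strips the endothelium and a neointima then grows; the external carotid branch on that side had been tied off. Each library held the pooled vessels of the same 2 rats, so the cells of 1 rat cannot be told from those of the other, and the control vessels came from animals that had been operated on.

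The barcode suffixes name no library and were assigned by the number of barcodes that the study's methods give for each, so every direction below rests on that match. The control library held 3321 barcodes with 24968329 UMIs and the case library 5656 barcodes with 28232614 UMIs. Cells were assigned 1 by 1 to a class by marker genes that included none of the 9 genes, which gave 1009 control and 2377 case vascular smooth muscle cells (VSMCs), 786 and 1573 fibroblasts, 57 and 254 endothelial cells and 52 and 131 macrophages. An intermediate class carrying mixed VSMC and fibroblast markers (280 and 380 cells), Schwann cells (18 and 53) and 4 lymphocytes made up the rest. Genes that the gates did not use were compared over VSMCs, fibroblasts, endothelial cells, macrophages and Schwann cells, and they peaked in the class they mark. Levels are given as CPM, UMIs of a gene per 1000000 UMIs of the class. Lmod1 reached 631 CPM in control VSMCs and at most 77.8 in the other control classes compared. Cd14 reached 1844 CPM in control macrophages and at most 14.7 in the other control classes compared. The intermediate class and the lymphocytes were not checked in this way. Control cells were deeper, with a median of 12653 UMIs per VSMC against 5516 in the case library. Only in the intermediate class were they shallower, with a median of 2173 against 4312. The libraries shared 21 barcode sequences, and the 9 genes were also summed without the cells that carried them.

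Interferons are secreted proteins that warn neighbouring cells of infection or damage. Type I interferons such as interferon beta bind the receptor of Ifnar1 and Ifnar2, and kinases of the JAK family then activate transcription factors that join IRF9 and bind the interferon-stimulated response element (ISRE) in front of target genes. Interferon gamma has its own receptor, of Ifngr1 and Ifngr2, and its signal reaches gamma-activated sites (GAS). In the vessel wall, macrophages, endothelial cells, fibroblasts and VSMCs can all carry these receptors. Irf1 and Irf7 are transcription factors of the response, and the other 7 genes are its antiviral effectors or products of unclear role.

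Because members of this group are switched on through shared elements, the sequences in front of an annotated transcript start are shown for those that held such an element. Promoter windows from RefSeq (build GRCr8, 250 bases before to 50 after an annotated transcript start) were matched by symbol for 5 of the 9 genes, Irf1, Irf7, Rsad2, Ifit3 and Mx1, and no window was matched for Isg15, Ifit2, Mx2 and Ifi27l2b. An ISRE-type motif, GAAA followed by any 2 bases and GAAA again, on either strand, was found in 3 of the 5 windows, and a GAS-type motif, TTCNNNGAA, which reads alike on both strands, was found in 1. Among all 33469 windows the shares were 3.92% and 8.87%. Among 50 windows of other interferon-stimulated genes, a list given further on, they were 66% and 26%. The motif is in capitals, all other bases are in lower case, and each line runs 5′ to 3′ on the strand of the gene.
Rsad2 (chr6:48788246-48788370, minus strand): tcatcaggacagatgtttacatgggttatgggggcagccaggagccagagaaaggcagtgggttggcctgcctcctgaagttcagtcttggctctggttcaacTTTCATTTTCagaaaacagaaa
Ifit3 (chr1:241527076-241527325, plus strand): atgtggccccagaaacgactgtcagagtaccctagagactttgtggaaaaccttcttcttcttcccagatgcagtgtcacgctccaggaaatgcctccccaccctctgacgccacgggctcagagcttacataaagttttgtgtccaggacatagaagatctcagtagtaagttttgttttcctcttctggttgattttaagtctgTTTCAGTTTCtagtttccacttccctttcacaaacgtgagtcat
Irf7 (chr1:205800073-205800102, minus strand): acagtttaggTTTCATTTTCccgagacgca
Irf1 (chr10:38417685-38417934, plus strand): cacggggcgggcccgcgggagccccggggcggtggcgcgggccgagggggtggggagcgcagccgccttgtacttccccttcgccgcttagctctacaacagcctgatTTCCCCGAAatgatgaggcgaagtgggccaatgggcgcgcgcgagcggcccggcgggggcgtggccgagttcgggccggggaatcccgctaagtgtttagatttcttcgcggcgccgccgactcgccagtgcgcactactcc
The Rsad2 and Irf7 windows held the same 10 letters, TTTCATTTTC, and the Ifit3 window TTTCAGTTTC, all on the strand opposite to the gene. Positions were counted from the transcript start of each window. The motif lay from −147 to −138 for Rsad2, from −44 to −35 for Ifit3 and from −69 to −60 for Irf7. The Irf7 motif was not wholly in front of the outermost annotated start of the gene, so only 30 bases around it are shown. For Irf1 the window held no ISRE-type motif, and the GAS-type letters TTCCCCGAA lay from −142 to −134. Mx1 held neither motif in its window. A match describes these letters and does not show that a factor binds there. The files were made with build Rnor_6.0, so no position in them was compared with these windows.

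Irf1 (ENSRNOG00000008144), a transcription factor induced by interferon gamma and by other inflammatory signals, had its own pattern. Its level in VSMCs was 566 CPM (95% interval 552 to 579) in the control library and 548 (536 to 560) in the case library. Endothelial cells held 598 (531 to 672) and 388 (355 to 423), and fibroblasts 200 (191 to 210) and 219 (209 to 229). The macrophages were lowest of the 6 classes in both libraries, with 125 (CPM) in the control and 117 in the case group. In control cells endothelial cells and VSMCs had overlapping intervals, as had fibroblasts, Schwann cells and macrophages in that order. All intervals are exact, Poisson for CPM and conditional binomial for ratios, and they cover counting error only, not differences between rats, libraries or single cells.

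Irf1 UMIs were spread over many cells. To compare cells of unlike depth, each was thinned to 2000 UMIs, and shallower cells were left out (50 control and 46 case VSMCs, 50 and 95 fibroblasts, 0 and 10 endothelial cells, 1 and 5 macrophages). Of the thinned VSMCs 53.7% in the control and 56.5% in the case library held at least 1 Irf1 UMI, against 86.5% and 77.6% of all VSMCs before thinning. In thinned fibroblasts the shares were 28.5% and 30.2%, and in macrophages 17.6% and 18.3%.

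Irf7 (ENSRNOG00000017414), the factor that amplifies type I interferon production, was highest in macrophages, with 64.7 CPM (44.3 to 91.3) in the control and 49.8 (35.3 to 68.4) in the case library. Fibroblasts held 28.3 and 25.4 CPM, endothelial cells 16.8 and 18.1, and VSMCs 8.39 and 8.12. Both libraries thus gave nearly the same level in each of these classes, and the intervals of the 2 libraries overlapped in all of them. Control Schwann cells held 58.3 CPM (21.4 to 127) on 6 UMIs, an interval that overlapped that of control macrophages. Case Schwann cells held 1 UMI.

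Isg15 (ENSRNOG00000021802) encodes a ubiquitin-like protein that is attached to other proteins during the response. Its level in macrophages was 485 CPM (426 to 551) in the control and 202 (171 to 237) in the case library. Fibroblasts held 105 and 82.5 CPM, endothelial cells 54.6 and 57.9, and VSMCs 48.6 and 38.9. Macrophages were clearly apart from fibroblasts in both libraries, 4.61-fold higher in the control (3.98 to 5.32) and 2.45-fold in the case library (2.04 to 2.92).

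Rsad2 (ENSRNOG00000007539) encodes viperin, a radical SAM enzyme that makes a chain-terminating nucleotide against viruses. In macrophages it reached 1253 CPM (1157 to 1356) in the control library and 467 (420 to 518) in the case library. Endothelial cells held 46.2 CPM (28.9 to 69.9) and 134 (115 to 155). Fibroblasts held 39.7 (35.6 to 44.1) and 25.3 CPM, so the control levels of these classes did not differ beyond counting error, and 1 cell held 15 of the 22 control endothelial UMIs. VSMCs held 8.39 and 12.7 CPM. Rsad2 was thus 149-fold higher in control macrophages than in control VSMCs (121 to 185) and 36.8-fold in the case library (30.6 to 44.4). Schwann cells held no Rsad2 UMI in either library, which allows up to 29.2 CPM in the control and 12.8 CPM in the case group.

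Ifit2 (ENSRNOG00000036604) and Ifit3 (ENSRNOG00000022839) encode tetratricopeptide proteins that bind foreign RNA or help to do so. Ifit2 stood at 408 CPM in control and 396 in case macrophages, at 134 and 123 in fibroblasts, at 77.6 and 122 in endothelial cells and at 9.99 and 16.4 in VSMCs. Ifit3 stood at 730 and 395 CPM in macrophages, 131 and 77.0 in fibroblasts and 10.5 and 54.2 in endothelial cells. VSMCs held only 14 control and 38 case UMIs of Ifit3, or 1.12 and 2.76 CPM. The gap between fibroblasts and VSMCs was therefore wide for Ifit3, 117-fold in the control (69.3 to 214) and 28-fold in the case library (20.2 to 39.9). Of the macrophage genes that the gates did not use, fibroblasts held 11.2 and 10.1 CPM of Cd14 against 1844 and 1836 in macrophages, and 11.9 and 7.78 CPM of Ctss against 166 and 249. The part of macrophage RNA in the fibroblast counts was not tested.

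Mx1 (ENSRNOG00000001959) and Mx2 (ENSRNOG00000001963), dynamin-like GTPases that block viral replication, had the fewest UMIs of the 9 over all gated cells, 225 and 191 for Mx1 and 170 and 167 for Mx2. Mx1 reached 97.0 CPM (71.5 to 129) in control and 60.3 (44.2 to 80.5) in case macrophages. In VSMCs it was 10.5 CPM in the control and 3.63 in the case library, and in fibroblasts 4.50 and 8.95. Mx2 had 46.5 CPM (29.5 to 69.8) in control macrophages and 14.4 (7.20 to 25.8) in case macrophages. Case endothelial cells, with 15.0 CPM of Mx2, could not be told apart from case macrophages within counting error. As Mx1 and Mx2 are close paralogs, and the Ifit genes form a family, reads that fit more than 1 copy could affect these counts, which was not tested.

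Ifi27l2b (ENSRNOG00000026605), a small interferon-inducible protein of the Ifi27 family, was the only one of the 9 that was highest in fibroblasts in both libraries. Fibroblasts held 616 CPM (599 to 632) in the control and 1081 (1059 to 1103) in the case library. Macrophages held 336 and 749 CPM, endothelial cells 58.7 and 396, Schwann cells 87.5 and 454, and VSMCs 19.6 and 70.3. At 2000 UMIs per cell, 55.7% of control and 64.7% of case fibroblasts held an Ifi27l2b UMI, against 3.13% and 7.64% of VSMCs, while before thinning it was 649 of 786 and 1258 of 1573 fibroblasts. Its CPM was higher in the case library in every class named here. Ifi27 itself was lower in the case library. Control and case VSMCs held 533 and 314 CPM of Ifi27, fibroblasts 660 and 372, endothelial cells 736 and 483, and macrophages 427 and 357. The log2 ratio of Ifi27 in macrophages was −0.26 (−0.52 to 0.01). Other genes of the family could share reads with Ifi27l2b, which was not tested.

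Among 513 control barcodes with fewer than 1000 UMIs, which were left out and can show free RNA, Rsad2 stood at 3.26 CPM and Ifit3 at 16.3 CPM, Isg15 at 71.8, Ifi27l2b at 235 and Irf1 at 297. Ifit2 stood at 26.1 CPM, Irf7 at 9.79, Mx1 at 6.52 and Mx2 at 3.26, with 3 UMIs of Irf7, 2 of Mx1 and 1 of Mx2. Control levels were compared with these values in VSMCs, fibroblasts, endothelial cells and macrophages. In VSMCs the levels of Ifi27l2b, Isg15, Ifit2, Ifit3 and Irf7 were below them. In endothelial cells those of Ifi27l2b, Isg15, Ifit3 and Mx1 were below, in fibroblasts those of Irf1, Mx1 and Mx2, and in macrophages that of Irf1. The part of free RNA in the counts was not tested.

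**Figure D1:**
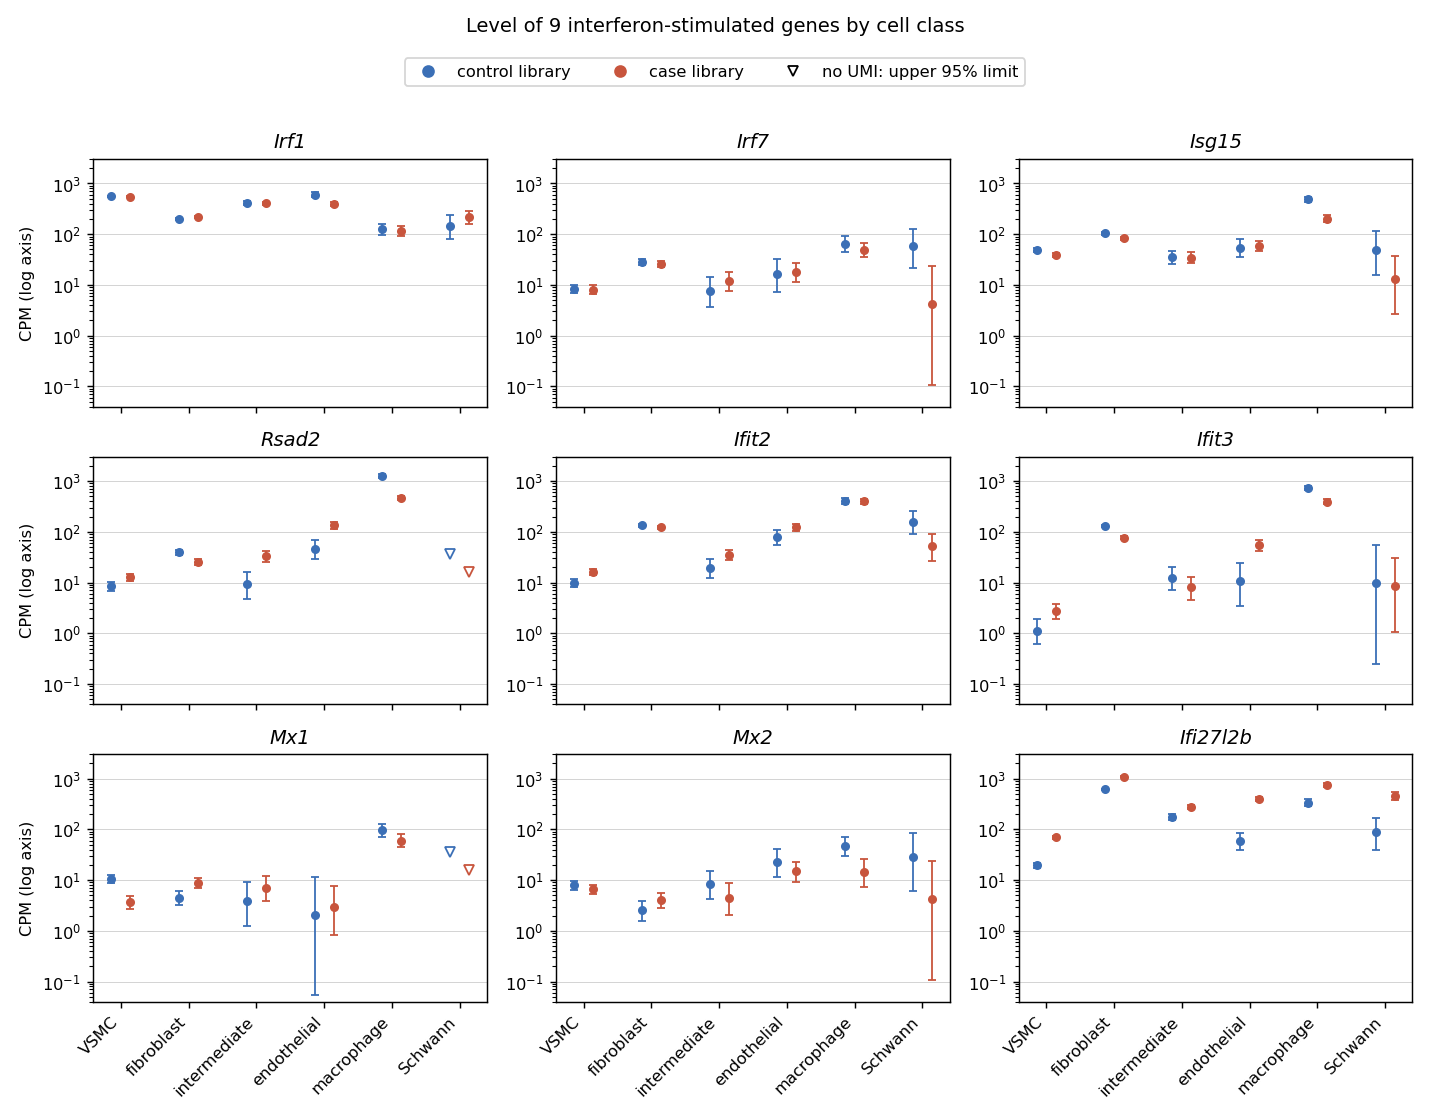
Level of each of the 9 genes in 6 cell classes (x axis) as CPM on a log axis, with control (blue) and case (red) libraries side by side and exact 95% Poisson bars; open triangles mark the upper limit where a class had no UMI. Macrophages are highest in the control library for 7 of the genes, although for Irf7 and Mx2 their interval overlaps that of Schwann cells. Irf1 is lowest in macrophages, and Ifi27l2b is highest in fibroblasts.

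The case and control libraries were then compared within each class, as the log2 ratio of their CPM. In macrophages most of the antiviral genes were lower after injury while Ifi27l2b was higher. Rsad2 differed by −1.42 (−1.62 to −1.23) on the log2 scale, Isg15 by −1.26 (−1.57 to −0.97), Mx2 by −1.69 (−2.87 to −0.59) on 23 and 11 UMIs, and Ifit3 by −0.89 (−1.11 to −0.66). Ifi27l2b stood at 1.16 (0.91 to 1.42). Of the 9 genes, 3 were at least 2-fold lower and 1 at least 2-fold higher, where 5.31% and 8.3% of all 5143 macrophage genes with at least 20 UMIs were so. The median of the 9 was −0.69, against 0.02 over all genes.

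The macrophage values rested on few cells. A single control macrophage of 12283 UMIs held 189 of the 620 Rsad2 UMIs of its class (30.5%), and also 80 of Ifit3, 80 of Ifit2 and 48 of Isg15, the most of any control macrophage for each of these genes. Only 11 of 52 control macrophages had any Rsad2 UMI, and 3 cells held at least 50% of them. In the case library 20 of 131 macrophages had Rsad2, and 2 cells held at least 50%. With the top cell of each gene left out of both libraries, the log2 ratio was −1.46 for Rsad2, −1.06 for Isg15 and −0.88 for Ifit3, and Ifit2 turned from −0.04 to 0.31. Rsad2 stood at −0.94 with cells thinned to 1000 UMIs and Isg15 at −0.90 with every cell given equal weight, so neither was 2-fold apart under that choice.

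In endothelial cells Rsad2 and Ifit3 were higher after injury, opposite to macrophages, while Ifi27l2b was higher in both. Ifi27l2b was 6.74-fold higher in the case library, at a log2 ratio of 2.75 (2.20 to 3.36). Ifit3 stood at 2.37 (1.08 to 4.03), on 5 control and 72 case UMIs, and Rsad2 at 1.54 (0.89 to 2.25), on 22 and 178 UMIs. Irf1 was lower, at −0.62 (−0.83 to −0.41), or −0.36 under TMM scaling, which sets the bulk of the genes level. Of 8 genes with at least 20 UMIs, 3 were at least 2-fold higher and 0 at least 2-fold lower, where 9.89% and 13.4% of all 6654 endothelial genes were so. The median was 0.38 against −0.16 over all genes, and ranged from 0.16 with every cell given equal weight to 1.09 with at least 50 UMIs per gene. Mx1, with 1 and 4 UMIs, was too scarce for a ratio.

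A single control endothelial cell held 15 of the 22 Rsad2 UMIs, and without the top cell of each library the log2 ratio became 3.09. At 2000 UMIs per cell, 2 of 57 control and 46 of 244 case endothelial cells held Rsad2. The endothelial levels also differed within the class. Case endothelial cells with a UMI of Plvap or Emcn, genes of capillary and fenestrated endothelium, held 718 CPM of Ifi27l2b (651 to 790) and 255 of Rsad2 (216 to 300). Those with neither held 147 (121 to 177) and 40.0 (27.0 to 57.1). Irf1 went the other way in the case library, at 267 and 482 CPM. In the control library it did not, at 680 CPM (533 to 855) with either gene and 574 (499 to 657) with neither, and these intervals overlapped. Cells with Plvap or Emcn were 13 of 57 in the control and 121 of 254 in the case library. In cells with either gene Rsad2 was at 186 CPM (114 to 288) in the control library, an interval that overlapped that of the case cells, but 1 cell held 15 of the 20 UMIs behind it. In cells with neither it was at 5.42 CPM (0.66 to 19.6) in the control, on 2 UMIs, which did not overlap the case interval. Ifi27l2b was at 112 CPM (57.8 to 195) and 43.3 CPM (24.8 to 70.4) in the control cells with and without, and neither interval overlapped that of the case library. For Ifit3 the intervals of the 2 libraries overlapped in both subsets. In cells with either gene they were 2.26 to 67.3 CPM in the control, on 2 UMIs, and 65.5 to 116 in the case library. In cells with neither they were 1.68 to 23.7 CPM, on 3 UMIs, and 17.3 to 42.8. The higher Ifit3 of the whole class was thus not clear beyond counting error within either subset. These subsets were chosen after the values had been seen.

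In VSMCs the 9 genes differed in both directions. Ifi27l2b was 3.59-fold higher in the case library, at a log2 ratio of 1.84 (1.64 to 2.05), and 314 of 2377 case cells held it. Ifit3 stood at 1.30 (0.38 to 2.30), but at 0.42 with every cell given equal weight, Ifit2 at 0.71 (0.39 to 1.04) and Rsad2 at 0.60 (0.24 to 0.96). At 2000 UMIs per cell, 2.40% of control and 2.75% of case VSMCs held Ifit2, and 1.36% and 2.19% held Rsad2. The intervals of the 2 libraries overlapped for both genes. A single case VSMC of 7662 UMIs held 22 of the 226 Ifit2 and 7 of the 38 Ifit3 UMIs. Mx1 was lower, at −1.54 (−2.04 to −1.06), with 132 UMIs in 59 control cells and 50 UMIs in 49 case cells. Irf1, with 7076 and 7556 UMIs, stood at −0.05 (−0.09 to 0.00). Of the 9 genes, 2 were at least 2-fold higher and 1 at least 2-fold lower, where 2.69% and 4.49% of 11582 VSMC genes were so, and the median was −0.05 against −0.14 over all genes. Serpinf1, a fibroblast gene that the gates did not use, stood at 214 CPM in control and 123 in case VSMCs, against 2804 and 1495 CPM in fibroblasts, and Mfap5 at 26.6 and 15.1 against 845 and 465. The part of fibroblast RNA in the Ifi27l2b counts of VSMCs was not tested. With at most 20% fibroblast markers allowed in a VSMC in place of 30%, the log2 ratio of Ifi27l2b was 1.71. Leaving out the top cell of each library gave 2.02.

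In fibroblasts no member was 2-fold apart, where 3.77% of 11008 genes were at least 2-fold higher and 4.35% at least 2-fold lower. Mx1 came closest at 0.99 (0.42 to 1.59), on 39 and 77 UMIs, with 1.04 under TMM scaling and 0.21 with every cell given equal weight. Ifi27l2b stood at 0.81 (0.76 to 0.86), on 5333 and 9306 UMIs, and it is the member with the most molecules behind its value. Ifit3 was lower, at −0.76 (−0.90 to −0.62), as was Rsad2, at −0.65 (−0.90 to −0.40), and Isg15, at −0.35 (−0.50 to −0.21). The median was −0.12 against −0.07 over all genes.

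A few fibroblasts carried much of these counts too. A single control fibroblast of 18224 UMIs held 125 Rsad2, 134 Ifit3, 186 Isg15 and 121 Ifi27l2b UMIs, and 2 cells held at least 50% of the Rsad2 UMIs of the control class. Without the top cell of each gene Rsad2 stood at −0.42, Isg15 at −0.12 and Ifit3 at −0.74. Fibroblasts with a UMI of Gfpt2, a hexosamine pathway enzyme, held 144 CPM of Ifit3 in the control library and 93.9 in the case library, against 52.6 and 17.0 in those without. Irf1 was lower in the fibroblasts with Gfpt2, at 168 and 174 CPM against 382 and 378. Ifi27l2b was closer, at 617 and 1100 CPM against 611 and 1014. Rsad2 was at 37.8 CPM with and 51.0 without Gfpt2 in the control library, but at 31.1 and 4.77 in the case library. Ifit3 also differed by Pi16 in the case library, at 96.9 CPM with and 51.0 without a UMI of it, against 132 and 121 in the control. Cells with Gfpt2 were deeper, with a median of 5760 against 3622 UMIs in the case library, and the subsets were chosen after values had been seen.

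In the smaller classes the picture was partial. Intermediate cells had log2 ratios of 1.84 (0.94 to 2.86) for Rsad2, on 12 and 66 UMIs, of 0.86 for Ifit2 and of 0.63 for Ifi27l2b. Irf7 stood at 0.64, Ifit3 at −0.62 (−1.72 to 0.47), Mx2 at −0.91 (−2.36 to 0.50), Isg15 at −0.04 and Irf1 at −0.005. Shares over all genes were not computed for this class. Of its cells, 138 of 280 control and 219 of 380 case cells lay within 10 percentage points of a gate cut. Schwann cells had 9 and 106 UMIs of Ifi27l2b, of which a single case cell held 53, and 16 and 12 UMIs of Ifit2, of which a single control cell held 13.

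**Figure D2:**
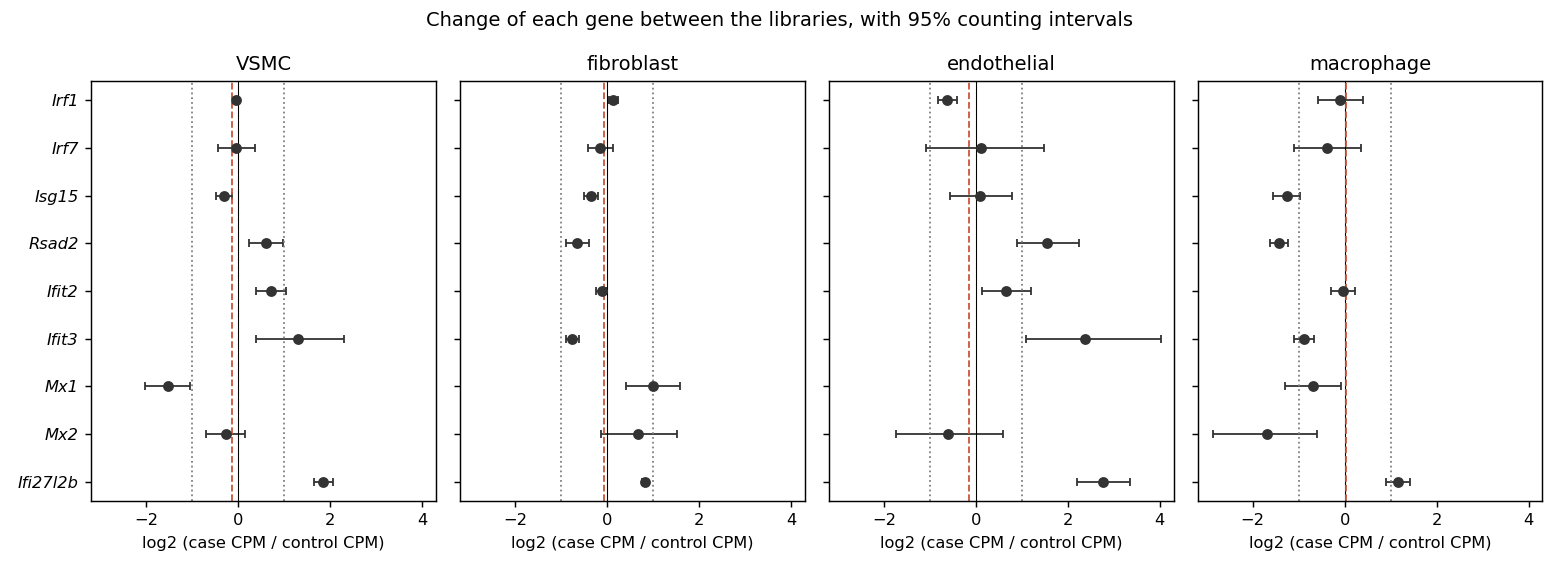
Log2 ratio of case over control CPM (x axis) of the 9 genes (y axis) in 4 classes, with 95% counting intervals; the dashed red line is the median of all genes of the class and dotted lines mark 2-fold. Ifi27l2b lies right of 0 in all 4 classes, and Rsad2 and Ifit3 lie right of 0 in endothelial cells and left of 0 in macrophages.

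The 7 genes other than Irf1 and Ifi27l2b, which were common in 1 or more classes, were next counted per cell after thinning to 2000 UMIs. UMIs of at least 2 of the 7 genes were found in 37.3% of 51 control macrophages (24.1 to 51.9) and 18.3% of 126 case macrophages (11.9 to 26.1). In endothelial cells the share was 3.51% of 57 control cells (0.43 to 12.1) and 15.6% of 244 case cells (11.3 to 20.7). Fibroblasts had 7.20% and 7.04%, and VSMCs 1.56% and 1.42%. The exact binomial intervals of the 2 libraries overlapped in macrophages and in endothelial cells. Up to all 7 genes were seen together in a control macrophage, against at most 2 in a control endothelial cell. With 1 thinned draw and no second library, the shares are given without a test.

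Among cells with any of the 7 genes, 194 of 247 control and 335 of 439 case fibroblasts held only 1 of them. So did 65 of 103 case endothelial cells, 29 of 52 case macrophages and 8 of 27 control macrophages. In macrophages, fibroblasts and case endothelial cells, those with a UMI of Rsad2 held Ifit3 more often than those without. In case macrophages 13 of 15 cells with Rsad2 also held Ifit3, against 10 of 111 without Rsad2. In control macrophages it was 7 of 10 against 9 of 41, in control fibroblasts 11 of 16 against 68 of 720, and in case endothelial cells 14 of 46 against 9 of 198. In case VSMCs, where Ifit3 was scarce, it was 1 of 51 against 10 of 2280, and Isg15 was found in 7 of the 51 with Rsad2 against 155 of the 2280 without. In control VSMCs Ifit3 was found in 0 of 13 with Rsad2 and in 1 of 946 without, and Isg15 in 0 of 13 and 59 of 946. The 2 control endothelial cells with Rsad2 held neither. By Isg15 the case endothelial cells were closer, with Ifit3 in 4 of 30 with Isg15 and 19 of 214 without. For Irf1 the counts varied by class, as Ifit3 was found in 32 of 446 case fibroblasts with Irf1 and in 66 of 1032 without, but in 5 of 9 control macrophages with Irf1 and in 11 of 42 without.

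**Figure D3:**
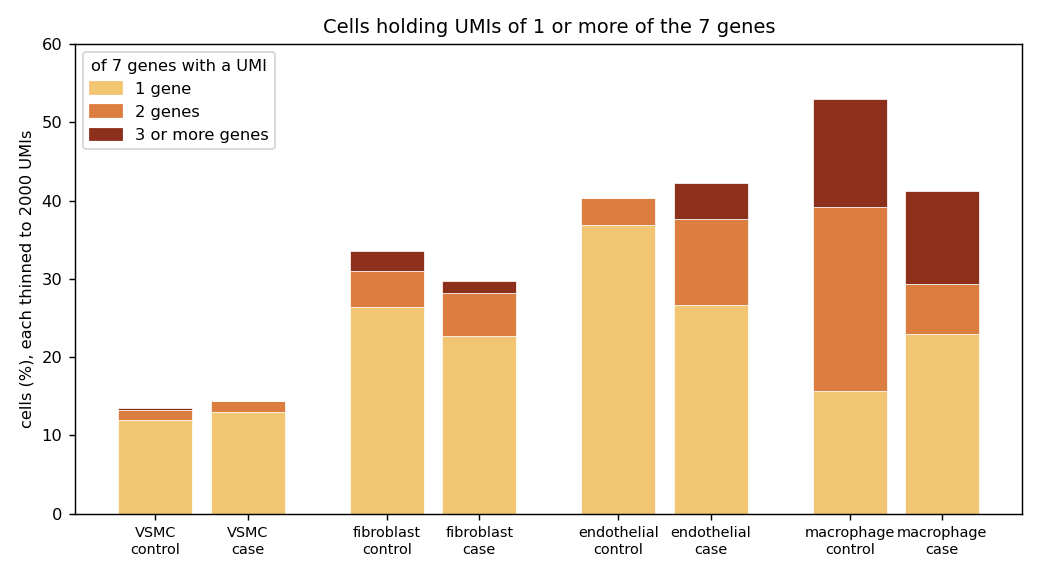
Percent of cells (y axis, bars from 0) that held a UMI of 1, 2 or at least 3 of 7 genes after thinning to 2000 UMIs, in 4 classes and both libraries (x axis). The part with 2 or more genes was 37.3% and 18.3% in control and case macrophages and 3.51% and 15.6% in control and case endothelial cells.

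To find the genes whose pattern over cells was most like that of the 9, the Pearson correlation with their mean was computed over 6974 cells, after centring within class and library, for 10972 genes. A member was set against the mean of the other 8. The 10 highest were Ifit3 (0.39), Oasl (0.37), Isg15 (0.32), Oasl2 (0.30), Rsad2 (0.29), Ifit1 (0.29), Cxcl10 (0.29), Samd9 (0.27), Parp14 (0.27) and Cmpk2 (0.27). The 7 that were no members all belong to the list of other interferon-stimulated genes, which was chosen with earlier results of these data known. Among them are the oligoadenylate synthetase-like Oasl and Oasl2, the chemokine Cxcl10 and the nucleotide kinase Cmpk2, which neighbours Rsad2 in mammalian genomes. Within macrophages the correlation reached 0.81 for Cmpk2 and for Ifit3, within fibroblasts 0.42 for Oasl, and within VSMCs no more than 0.15 for any of the 10. Irf1 had −0.01 and ranked 9460, and Ifi27l2b had 0.17 and ranked 45. The 9 genes entered the mean unscaled, and in VSMCs Irf1 had by far the highest level, at 566 and 548 CPM. Its own correlation within VSMCs was −0.08. The part of Irf1 in the low VSMC values was not tested. Cells of a library share its depth and free RNA, so these values describe likeness only.

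**Figure D4:**
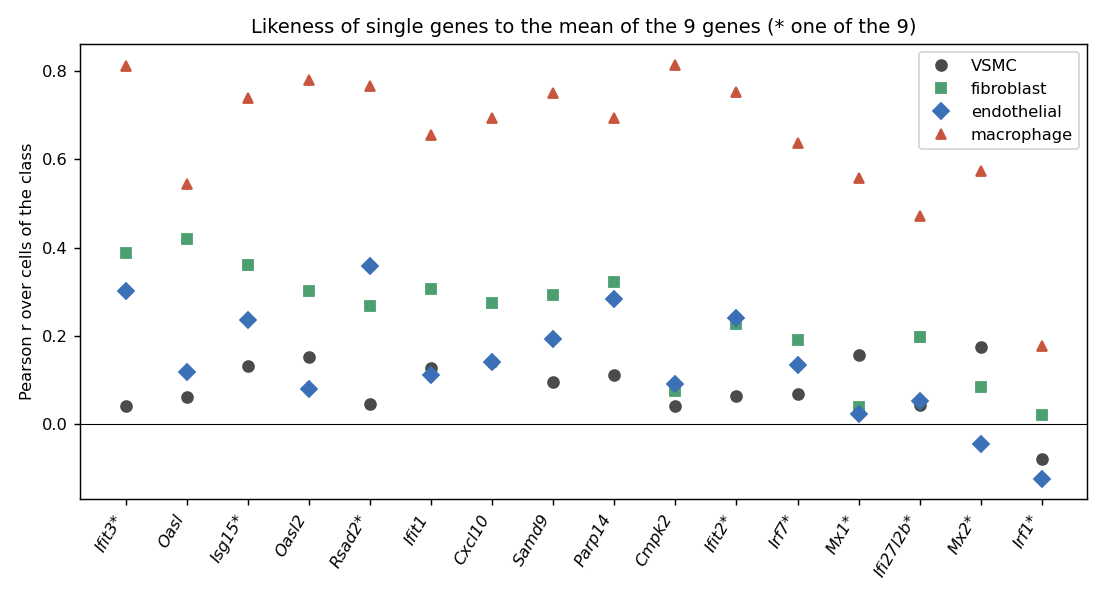
Pearson correlation over the cells of each class (y axis) between single genes (x axis, ordered by overall rank, members starred) and the mean of the 9 genes. Macrophages (red triangles) are highest for each gene shown, up to 0.81 for Cmpk2, and Irf1 lies lowest of the genes shown in each class.

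Of 56 other interferon-stimulated genes listed, 51 were found among the gene symbols. This list was chosen with earlier results of these data known, so its counts are given as a description. In macrophages 34 of them had at least 20 UMIs, of which 13 were at least 2-fold lower in the case library and 1 at least 2-fold higher, with a median of −0.85. Over all macrophage genes the shares were 5.31% and 8.3%. Genes of this list varied together over macrophages, as Oasl2, Samd9 and Ifit1 had correlations of 0.78, 0.75 and 0.66 there with the mean of the 9. The 13 lower genes are therefore not separate observations. The lowest log2 ratio was that of Ifit1, an RNA-binding relative of Ifit2, at −2.21 (−3.12 to −1.37), and the highest that of Lgals3bp, a secreted galectin-binding glycoprotein, at 1.42 (0.64 to 2.28). In endothelial cells 2 of 28 were at least 2-fold higher, led by the GTPase Ifi47 at 2.11 (0.91 to 3.60), and 4 at least 2-fold lower, led by the GTPase Igtp at −1.62 (−2.57 to −0.68), where 9.89% and 13.4% of all endothelial genes were so, close to the shares of the list. The endothelial median was −0.13, so the list as a whole was close to the −0.16 of all endothelial genes. In fibroblasts 1 of 43 was at least 2-fold higher, the chemokine Cxcl9 at 2.64 (2.36 to 2.94), and 3 were lower, led by Tor3a at −1.06 (−1.88 to −0.28), where 3.77% and 4.35% of all fibroblast genes were so. In VSMCs 1 of 40 was higher, Parp14 at 1.34 (1.15 to 1.54), and 1 lower, Gbp4 at −2.31 (−4.33 to −0.71) on 18 and 4 UMIs, where 2.69% and 4.49% of all VSMC genes were so. The list medians were 0.01 in fibroblasts and 0.11 in VSMCs.

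Among the interferons themselves, Ifnb1, the gene of interferon beta, was found in macrophages alone of the gated classes. Control macrophages held 9 Ifnb1 UMIs in 4 cells and case macrophages 12 in 3 cells, and over all barcodes, gated or not, 17 and 12 UMIs were counted. A count of 0 allows up to 0.240 CPM in control VSMCs, 0.346 in control fibroblasts, 6.29 in control endothelial cells and 29.2 in control Schwann cells, against 18.2 CPM in control macrophages, so a like level in Schwann cells was not detectable at this depth. The 4 control macrophages with Ifnb1 all held Rsad2, Isg15, Ifit2 and Ifit3, at 4569 CPM of Rsad2 against 947 in the other 48. The 3 case macrophages with Ifnb1 held 825 CPM of Rsad2 and 1414 of Ifit3, against 459 and 372 in the other 128. The control macrophage with the most Rsad2 held no Ifnb1 UMI. Ifnb1 was singled out after its values had been seen.

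The receptors and signalling genes form short lists, in which a count of 0 or 1 past 2-fold is near the share over all genes of a class, 2.69% to 13.4% in each direction. Of the 6 interferon and receptor genes with at least 20 UMIs in VSMCs, 0 were 2-fold apart. Their log2 ratios were highest for the interferon lambda receptor Ifnlr1 at 0.94 (0.45 to 1.45) and lowest for Ifnar2 at −0.94 (−1.59 to −0.30). In fibroblasts Ifnlr1 stood at 1.08 (0.53 to 1.64) and Ifnar2 at −0.71, in endothelial cells Ifngr2 at 0.33 and Ifngr1 at −0.57, and in macrophages Ifngr2 at 1.08 (−0.11 to 2.43) and Ifngr1 at −0.27. Of the JAK and STAT pathway genes with enough UMIs, 0 of 12 were 2-fold apart in VSMCs, 0 of 11 in fibroblasts and 0 of 9 in macrophages, where the extremes were Ptpn6 at 0.86 and Socs3 at −0.62 in VSMCs and Pias1 at 0.36 and Socs1 at −0.30 in fibroblasts, and the highest in macrophages was Ptpn11 at 0.58. In endothelial cells the feedback inhibitor Socs1 stood at 1.24 (0.42 to 2.16) and Socs3 at −1.06 (−2.44 to 0.36).

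Of 14 listed genes for sensing foreign nucleic acid, 11 had enough UMIs in VSMCs and in fibroblasts, 3 in endothelial cells and 4 in macrophages. The RNA sensor Ifih1 stood at 1.05 (0.74 to 1.37) in VSMCs and at 0.76 in endothelial cells, the highest of the list in both. In fibroblasts the extremes were Tlr3 at 0.35 and Cgas at −0.64, in macrophages Traf3 at 0.31 and the endosomal RNA receptor Tlr7 at −1.47 (−2.07 to −0.88), while the lowest was Ddx58 at −0.30 in VSMCs and Irf3 at −0.48 in endothelial cells. Of the other interferon regulatory factors and their partners, Irf5 stood at 2.59 in fibroblasts on 3 and 18 UMIs and at 0.56 in macrophages, Irf8 at 1.26 in endothelial cells (0.01 to 2.79), and Irf2bp1 at 0.36 in VSMCs. The lowest of that list were Irf2bp2 at −0.64 in VSMCs and −0.55 in fibroblasts, and Irf2 at −0.13 in endothelial cells and −1.38 in macrophages.

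Immediate early and stress genes, which tissue digestion can induce, were compared in the same way. Of 12 with at least 20 UMIs, 0 were 2-fold apart in VSMCs and in fibroblasts. In endothelial cells 2 and in macrophages 1 were at least 2-fold lower, where 13.4% and 5.31% of all genes were so, and 0 were 2-fold higher. Their median over 12 genes was −0.25 in VSMCs, 0.01 in fibroblasts, −0.52 in endothelial cells and −0.28 in macrophages. Over all genes it was −0.14, −0.07, −0.16 and 0.02 in the same order. The extremes were Hspa1b at 0.28 and Jund at −0.78 in VSMCs, Egr1 at 0.45 and Junb at −0.79 in fibroblasts, Zfp36 at −0.02 and Fos at −1.22 in endothelial cells, and Dusp1 at 0.68 and Hspa1b at −1.18 in macrophages. Their part in the levels of the interferon-stimulated genes was not tested.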

How the data were processed

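The authors made raw UMI counts with Cell Ranger 3.1.0, per the file headers and the study's methods, and joined both libraries in 1 matrix (build Rnor_6.0 in the submitters' processing notes). The suffix of 5656 barcodes was taken as case and that of 3321 as control, from the numbers in the study's text. Whether these counts had been down-sampled is not given in the sources used here.

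Cells were kept with at most 20% mitochondrial UMIs, log10 UMIs and genes within 2 SD of the library mean, a gene number at most 3 robust SD from a line fitted on the UMIs, and at least 1000 UMIs. Endothelial cells, macrophages, Schwann cells and lymphocytes needed 3 different markers, 5 marker UMIs and 5 per 10000. Of the rest, with at least 10 UMIs of VSMC and fibroblast markers and 50 per 10000, VSMCs had at most 30% and fibroblasts at least 70% fibroblast markers. Doublets were left in. UMIs were summed per class and library, genes with at least 20 UMIs over both libraries were compared, and a count of 0 allows up to 3. UMIs of 1 cell are not independent, so intervals are too narrow. With 1 library per group no p-value was computed.

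The genes named were the 9 members, the highest and lowest log2 ratio of each list in each class, and the 10 genes most alike in Pearson correlation among those with a UMI in at least 1% of cells. Ifi27 was added after values had been seen. The lowest ratio of 1 list in macrophages is not reported here. Members and lists were chosen with earlier results of these data known. Among the alternatives, 12 changed scaling, filters, gates, clusters, doublets and depth, and 2 (shared barcodes and the top cell of each gene left out) were added after the data had been seen. Steps were tested on simulated data. Python 3.11.15, scipy 1.17.1, scanpy 1.11.5, R 4.3.3 and edgeR 4.0.16 (TMM factors only) were used.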

Additional observations from a re-analysis of the deposited data

Results flagged for a closer look

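For 4 of the 9 genes the case library was higher than the control in 1 class and lower in another, beyond counting error in both and under both scalings. With 1 library per group the difference between the classes was not tested. UMIs of 1 cell are not independent, so shares of cells with a UMI, at 2000 UMIs per cell, were also compared. Their intervals overlapped between the libraries for Rsad2 and Ifit3 in macrophages and for Ifit3 in endothelial cells. They overlapped too for Mx1 in fibroblasts and for Irf1 in fibroblasts and endothelial cells. They did not overlap for Rsad2 in endothelial cells or for Mx1 in VSMCs. For Rsad2 in endothelial cells this held at 2000 UMIs only. At 1000 UMIs per cell its control interval reached up to 9.39% and its case interval down to 7.78%. Before thinning these limits were 19.3% and 18.5%, so the intervals overlapped in both settings. For Mx1 in VSMCs the intervals stayed apart in both settings. Rsad2 was higher in endothelial cells (log2 ratio 1.54) and lower in macrophages (−1.42), a difference of 2.96. Ifit3 was at 2.37 and −0.89 in the same classes, a difference of 3.25. Mx1 was at 0.99 in fibroblasts and −1.54 in VSMCs, a difference of 2.53, although with every cell given equal weight the fibroblast value was 0.21. Irf1 was at 0.13 in fibroblasts and −0.62 in endothelial cells, a difference of 0.75.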

How the results depend on the processing

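Of 476 values of single genes recomputed under 12 planned and 2 added alternatives, 451 stayed within the counting interval of the reported value and 25 moved out of it. None of the 10 values past 2-fold changed sign, while 7 of all 35 did at least once: Ifit2 and Irf1 in macrophages, Irf7 in VSMCs, fibroblasts and endothelial cells, Isg15 in endothelial cells and Irf1 in VSMCs. The median of the members moved by more than the typical counting error in 3 cases. It was 1.09 in endothelial cells with at least 50 UMIs per gene, where 6 members remained, and with cells thinned to 1000 UMIs it was 0.38 in VSMCs on 6 members and −0.28 in fibroblasts on 7. TMM scaling shifted all ratios by 0.13 in VSMCs, 0.05 in fibroblasts, 0.27 in endothelial cells and 0.04 in macrophages, and turned the VSMC median to 0.09. With every cell given equal weight Ifit3 in VSMCs was 0.42 in place of 1.30. Rsad2 in VSMCs was 2.67 at 1000 UMIs per cell, where few UMIs were left. With the shared barcodes left out the medians were −0.05 in VSMCs, −0.13 in fibroblasts, 0.38 in endothelial cells and −0.68 in macrophages. Of 72 shares of cells with a UMI, 42 moved beyond their interval when cells were thinned to 1000 in place of 2000 UMIs. Counts of a few cells, 57 control endothelial cells and 52 control macrophages limit the precision. No library could be left out, since each group had 1. No paired analysis was possible, because the vessels of both rats were pooled in 1 library per group and the groups share fewer than 2 replicate numbers.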
